A study of Mus musculus with 6 samples.

Results

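The 43 genes described here encode proteins of mitosis and chromosome segregation, and their transcripts were measured by RNA-seq in murine embryonic stem cells (ESCs) after shRNA-mediated depletion of SMC1, CAPH2 or SMC2. The genes were listed by name, with earlier results of these data known, and each was followed through its RefSeq transcript accession. For each gene the row with the most counts summed over the 6 libraries was used, which gave 43 of 43 genes among the 26073 RefSeq rows listed per library. Sgol1 and Sgol2 are named Sgo1 and Sgo2a in the current reference. The annotation held a single row for 35 of the genes and several isoform rows for 8.

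There was 1 library for the control hairpin against GFP, 1 for SMC1, 2 for CAPH2 and 2 for SMC2, and the paired libraries of a target carry different hairpins (CAPH2 #1 and #2, SMC2 #1 and #2). The cells were V6.5 ESCs (C57BL/6-129), a line maintained on irradiated mouse embryonic fibroblasts and taken off them before the experiment. In every group, GFP included, they were infected with lentivirus in polybrene at 8 µg/ml and then selected with puromycin. For puromycin the sample labels give 0.5 µg/ml for 48 h and then 1 µg/ml for another 48 h, starting 24 h after infection. The study's methods give another, higher puromycin concentration. SMC1 is a cohesin subunit, CAPH2 belongs to condensin II, and SMC2 is shared by condensin I and condensin II. Because paired libraries carry different hairpins, the spread between them mixes hairpin, infection and library. It is not that of repeated cultures of 1 hairpin. No library of the GFP or SMC1 hairpin was repeated, so these groups have no spread of their own. The CAPH2 numbers follow the construct identifiers, and the sample labels number the same constructs differently.

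Mitosis is driven by CDK1 bound to its cyclins, and condensin compacts the chromosomes. Cohesin holds sister chromatids together until all kinetochores are attached to the spindle. The spindle checkpoint restrains CDC20 and the anaphase-promoting complex until then, after which securin is destroyed and separase cuts cohesin. Most of the genes that encode these proteins are transcribed late in the cell cycle, in G2 and M, and mouse ESCs divide rapidly with a short G1.

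The RPKM values (reads per kilobase of exon, scaled to the reads of the library) rested on 18823247 to 23324537 reads per library. The target transcripts were lower with their own hairpins, with Smc1a at 36.1 RPKM for GFP and 14.4 for SMC1, Ncaph2 at 80.2 for GFP and 16.9 and 27.9 for CAPH2 #1 and #2, and Smc2 at 26.6 for GFP and 18.8 and 19.1 for SMC2 #1 and #2. Markers of ESCs were present in all libraries, and 10 of 10 were lower with SMC1 than with GFP, with a summed RPKM of 3995 in the GFP library, 2120 with SMC1 and 3276 to 3494 with the condensin hairpins. Of 10 markers of feeder fibroblasts, 6 exceeded 1 RPKM with the GFP hairpin and all 6 of these were higher with SMC1, with a summed RPKM over the 10 of 51.6 in the GFP library, 111 with SMC1 and 55.7 to 82.9 with the condensin hairpins, while Lum and Dcn were near 0 in the GFP library. The part of this shift in the changes of the mitotic genes was not tested. In bulk RNA, a smaller share of dividing cells and less transcript per dividing cell cannot be told apart.

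All 43 genes were expressed in the GFP library. Their RPKM there ranged from 10.4 for Cenpe to 220.5 for Ube2c with a median of 55.3, while the median over the 15538 expressed RefSeq rows (those at 1 RPKM or more with GFP) was 14.1. The lowest count of any of the genes in any library was 588 and the highest 20675. Cenpa (192.7), Cdc20 (164.1), Ccna2 (154.6), Ccnb2 (147.6) and Top2a (133.7) had the next highest RPKM in the GFP library, and Top2b (12.5), Cenpf (14.3) and Ndc80 (16.0) were among the lowest.

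The promoters of the genes shared short sequence elements that the choice of genes did not use. Promoters of late cell-cycle genes are known for a cell cycle genes homology region, whose core reads TTTGAA or TTCGAA, and for CCAAT boxes bound by NF-Y. In RefSeq promoters of build GRCm38.p6, from 250 bases before to 50 after the transcription start, 36 of the 43 genes had an entry. Entries were missing for Ccna2, Dlgap5, Tpx2, Cdc25c, Aurkb, Incenp and Kif20a. The core was found on either strand in 27 of the 36 (75%), against 21.7% of 27025 genes with a promoter entry and 15.7% of the 9563 expressed ones. CCAAT was found in 28 (77.8%), against 41.1% of all genes, 60.7% of 89 other mitotic genes and 61.1% of 36 S-phase genes, and both elements were found in 24 (66.7%), against 8.61%. A base could count for both elements, and a match describes the letters and not a bound site. The core was present in 42.7% of the other mitotic genes and in 22.2% of the S-phase genes. With the window limited to the 150 bases before the start, the core was found in 12 of the 36 (33.3%) and in 11.2% of all genes. The promoters below run from 150 bases before to 30 after the start on the strand of the gene, with each TTTGAA or TTCGAA core and each CCAAT box in capitals on either strand. Pttg1 and Top2b are shown because they carried the largest change in each direction with SMC1. Ccnb2, Cdk1 and Cenpa are shown because each was higher with GFP than in any other library, and Top2a because it was lower.
Ccnb2 (chr9:70421525-70421704, minus strand): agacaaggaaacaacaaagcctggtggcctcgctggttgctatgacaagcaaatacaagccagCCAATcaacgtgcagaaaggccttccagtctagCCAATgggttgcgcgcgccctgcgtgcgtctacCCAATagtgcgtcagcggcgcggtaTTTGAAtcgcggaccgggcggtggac
Cdk1 (chr10:69352883-69353062, minus strand): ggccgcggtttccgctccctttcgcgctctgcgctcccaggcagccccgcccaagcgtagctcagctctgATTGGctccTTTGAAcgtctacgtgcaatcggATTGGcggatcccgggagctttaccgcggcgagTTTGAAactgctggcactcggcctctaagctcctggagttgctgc
Cenpa (chr5:30666736-30666915, plus strand): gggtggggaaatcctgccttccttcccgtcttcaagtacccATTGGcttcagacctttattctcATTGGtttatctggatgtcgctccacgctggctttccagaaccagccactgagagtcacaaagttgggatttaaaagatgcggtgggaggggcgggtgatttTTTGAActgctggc
Top2a (chr11:99024160-99024339, minus strand): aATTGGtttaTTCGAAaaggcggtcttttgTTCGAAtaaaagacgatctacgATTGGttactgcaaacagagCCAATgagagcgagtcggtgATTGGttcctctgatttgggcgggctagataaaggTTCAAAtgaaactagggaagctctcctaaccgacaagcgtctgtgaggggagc
Top2b (chr14:16365056-16365235, plus strand): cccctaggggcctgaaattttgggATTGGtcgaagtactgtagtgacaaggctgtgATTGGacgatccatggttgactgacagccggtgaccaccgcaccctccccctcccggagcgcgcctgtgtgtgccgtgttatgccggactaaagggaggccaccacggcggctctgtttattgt
Pttg1 (chr11:43425952-43426131, minus strand): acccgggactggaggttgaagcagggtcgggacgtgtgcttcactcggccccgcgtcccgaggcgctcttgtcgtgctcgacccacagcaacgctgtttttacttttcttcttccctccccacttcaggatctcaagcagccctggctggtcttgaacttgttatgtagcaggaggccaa
Top2a held 3 matches to the core and 4 CCAAT boxes in this stretch, Ccnb2 1 and 3, Cdk1 2 and 2, and Cenpa 1 and 2. Top2b held no core and 2 CCAAT boxes, and Pttg1 held neither.

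Relative to the GFP library, the median change of the mitotic genes was near 0 with every target. With SMC1 the median log2 change of the 43 genes was -0.05, beside -0.02 over the 15538 expressed rows. Above 0 were 17 genes and below it 26, beside 7493 and 8034 of the expressed rows. A fold of at least 1.5 in either direction was reached by 32.8% of the expressed rows with SMC1 (15.5% higher, 17.3% lower) and by 3 of the 43 genes (6.98%). These were Top2b, which was higher, and Pttg1 and Ccnb2, which were lower. Among the 9307 rows at 10 RPKM or more, the range that holds all of the mitotic genes, 23.1% reached that fold. The median log2 change of those rows with SMC1 was -0.10, with 3816 above 0 and 5490 below. The median absolute change of the genes was 1.18-fold with SMC1, against 1.30-fold over all expressed rows and 1.24-fold over those at 10 RPKM or more. With CAPH2 the median log2 change of the average of the hairpins was 0.05, and with SMC2 it was 0.02. A fold of 1.5 in the average and in each hairpin was reached by 0 of the 43 genes with CAPH2 and 0 with SMC2, against 3.6% of expressed rows for CAPH2 (1.52% higher, 2.09% lower) and 3.6% for SMC2 (1.44% higher, 2.16% lower). Among rows at 10 RPKM or more the shares were 1.22% and 1.36%. The median absolute change of those rows was 1.11-fold with CAPH2 and with SMC2, and that of the 43 genes was also 1.11-fold with each. These comparisons share 1 GFP library and have no replicate of it, so they carry no p-value.

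Scaling to the ERCC spike-ins raised the values of the SMC1, CAPH2 #1 and both SMC2 libraries against GFP and slightly lowered those of CAPH2 #2. On the log2 scale the medians over the expressed rows became 0.84 with SMC1, 0.63 with CAPH2 #1, -0.07 with CAPH2 #2, and 0.61 and 0.54 with SMC2 #1 and #2. The medians of the mitotic genes became 0.82, 0.64, -0.01, 0.66 and 0.56 in the same order, so the CAPH2 hairpins stood apart from each other with this scaling. With it 42 of the 43 genes were above GFP with SMC1, with Pttg1 as the exception, while 43 were above with CAPH2 #1 and 21 with CAPH2 #2. The directions given below are therefore relative to the reads of each library.

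**Figure D1:**
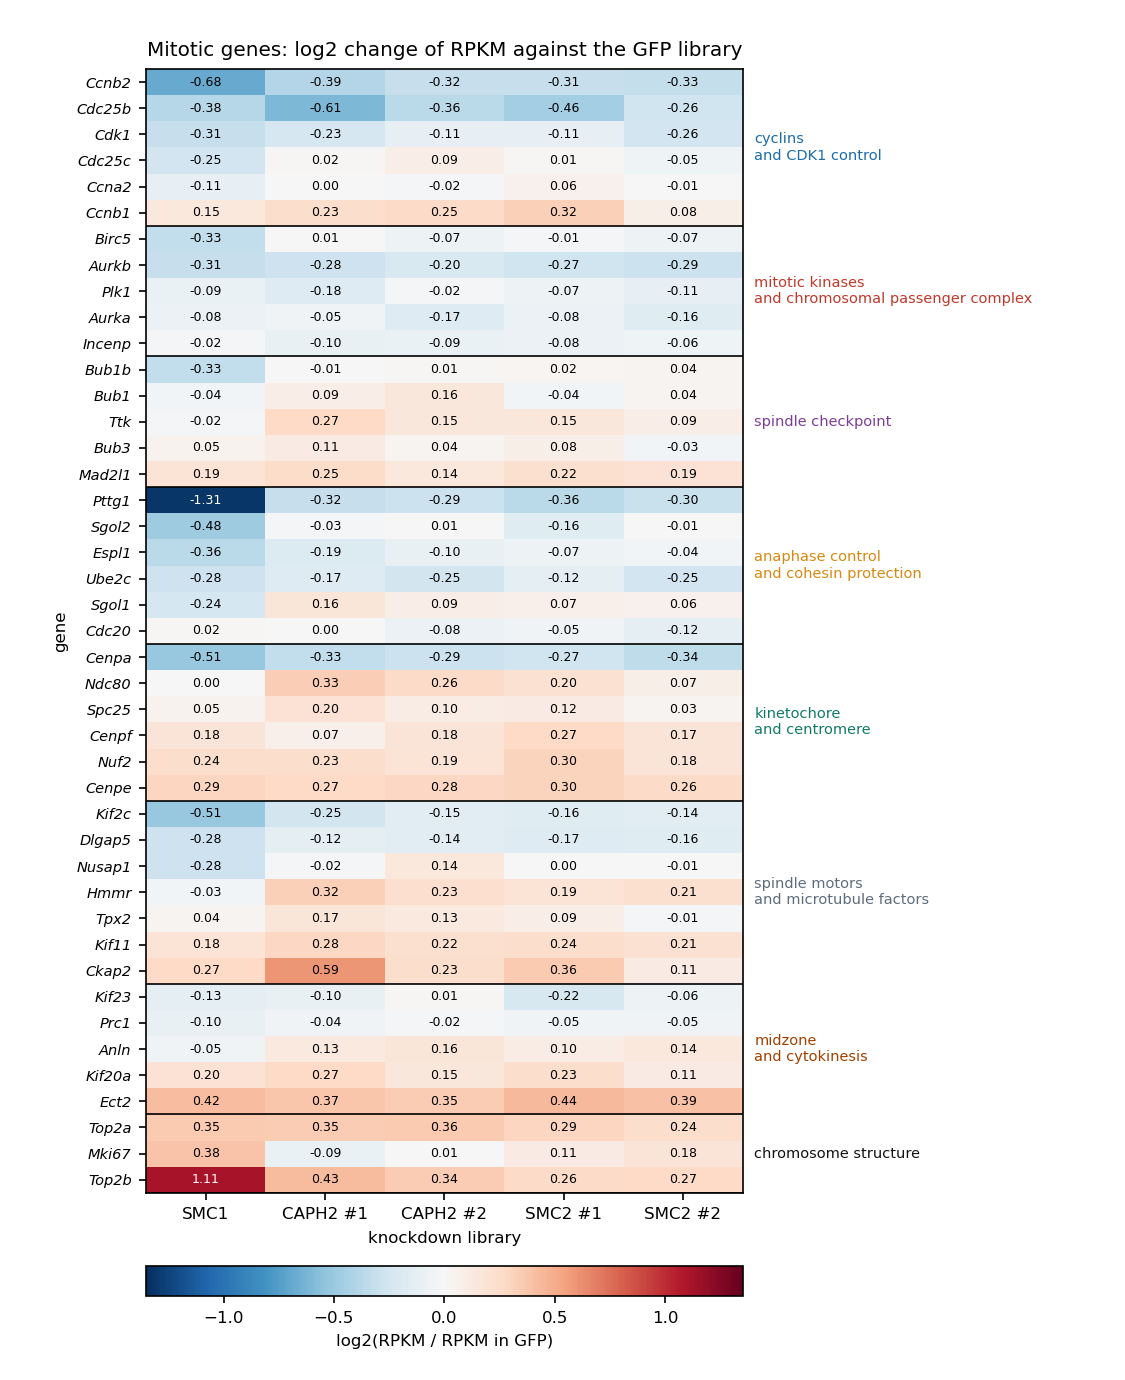
Log2 change of the RPKM of the 43 genes against the GFP library, 1 row per gene grouped by role and 1 column per knockdown library, with blue for lower and red for higher values. Most cells lie between -0.5 and 0.5, with Pttg1 (-1.31) and Top2b (1.11) in the SMC1 library farthest from 0. Values are scaled to the reads of each library, and with the ERCC spike-ins 42 of the 43 genes lie above GFP in the SMC1 library.

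The genes of cyclins and of the enzymes that control CDK1 had a median log2 change of -0.28 with SMC1, and 5 of 6 were below 0. Ccnb2 (NM_007630, cyclin B2) was at an RPKM of 147.6 with GFP and 92.4 with SMC1, and at 112.5 and 118.6 with CAPH2 #1 and #2 and 119.4 and 117.7 with SMC2 #1 and #2. The GFP library was therefore above all 5 knockdown libraries, and the SMC1 library below the other 5. With SMC1 the Ccnb2 level was 62.6% of GFP (95% exact binomial confidence interval 59.7 to 65.6, counting error only), a log2 change of -0.68, which turned to 0.19 with the ERCC scaling. Cdk1 (NM_007659), the kinase itself, was at 116.4 with GFP, 94.0 with SMC1, 99.6 and 108.0 with CAPH2, and 107.8 and 97.4 with SMC2. Its level was again highest with GFP, and the SMC1 value was just under the lowest of the condensin hairpins. Ccnb1 (cyclin B1) lay the other way, at 35.6 with GFP, 39.4 with SMC1, 41.9 and 42.5 with CAPH2, and 44.5 and 37.5 with SMC2. Cdc25b, a phosphatase that activates CDK1, was at 18.2 with GFP, 14.0 with SMC1, 11.9 and 14.2 with CAPH2, and 13.2 and 15.2 with SMC2. It had the lowest log2 change of the 43 genes with CAPH2 (-0.48) and with SMC2 (-0.36), and it passed a fold of 1.5 with CAPH2 #1 only. Ccna2 (cyclin A2) ranged only from 142.9 with SMC1 to 161.0 with SMC2 #1.

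The mitotic kinases and the chromosomal passenger complex, which corrects faulty attachments at the centromere, had 5 of 5 genes below 0 with SMC1, with CAPH2 and with SMC2, at medians of -0.09, -0.10 and -0.09. Of the 9307 rows at 10 RPKM or more, 5490, 5111 and 5338 were below 0, at medians of -0.10, -0.03 and -0.04. With SMC1 the median of the group was thus near that of those rows. Aurkb (NM_011496), the kinase of that complex, was at 73.1 with GFP, 59.1 with SMC1, 60.1 and 63.6 with CAPH2, and 60.5 and 59.8 with SMC2. The GFP library stood above all 5 others, which were close together. Plk1, a kinase of mitotic entry and exit, was at 125.1 with GFP, 117.2 with SMC1, 110.6 and 123.8 with CAPH2, and 119.0 and 115.6 with SMC2, and the CAPH2 hairpins were the lowest and the highest of the knockdown libraries. Birc5 (survivin), the passenger subunit that targets the complex to centromeres, was at 57.5 with GFP, 45.6 with SMC1, 57.8 and 54.9 with CAPH2, and 57.0 and 54.7 with SMC2. Here SMC1 alone was low.

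Spindle checkpoint genes were close to the GFP level, with a median of -0.02 with SMC1, 0.12 with CAPH2 and 0.03 with SMC2. Bub1b (NM_009773, the checkpoint protein BUBR1) was the exception with SMC1, with RPKM of 104.3 with GFP, 82.9 with SMC1, 103.7 and 105.2 with CAPH2, and 106.0 and 106.9 with SMC2. The GFP and condensin libraries were nearly level, and the SMC1 library was at 79.6% of GFP (76.9 to 82.3). Bub1, the kinase that recruits other checkpoint proteins, was at 37.7, 36.7, 40.0, 42.0, 36.7 and 38.8 with GFP, SMC1, CAPH2 #1, CAPH2 #2, SMC2 #1 and SMC2 #2. Mad2l1, which encodes the checkpoint effector MAD2, was lowest with GFP (68.8) and lay between 75.8 and 81.8 in the other 5 libraries.

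The genes of anaphase control and of the shugoshins, which protect centromeric cohesin, had a median of -0.32 with SMC1, and 5 of 6 were below 0. Pttg1 (NM_013917, chromosome 11 from 43233751 to 43239483, minus strand, mm9) encodes securin, the inhibitor of separase. Its RPKM was 56.9 with GFP, 22.9 with SMC1, 45.7 and 46.5 with CAPH2, and 44.2 and 46.2 with SMC2. The 4 condensin libraries were close to each other and all below GFP, and the SMC1 level of 40.3% of GFP (37.0 to 43.8) was the largest fall among the 43 genes, a log2 change of -1.31 that stayed below 0 with the ERCC scaling. Espl1 (NM_001014976), which encodes separase, was at 55.3 with GFP, 43.0 with SMC1, 48.5 and 51.5 with CAPH2, and 52.6 and 53.9 with SMC2. Sgol2 (NM_199007, shugoshin 2) was at 25.4 with GFP, 18.1 with SMC1, 24.9 and 25.5 with CAPH2, and 22.7 and 25.2 with SMC2, and Sgol1 (NM_028232, shugoshin 1) at 22.3, 18.9, 24.9, 23.7, 23.3 and 23.2 in the same order. For both shugoshins the SMC1 library was the lowest of the 6. The remaining members, Cdc20, the activator of the anaphase-promoting complex, and Ube2c, its ubiquitin-conjugating enzyme, differed in direction with SMC1, with Cdc20 at 164.1 with GFP and 165.8 with SMC1 and Ube2c at 220.5 and 181.4.

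The 6 kinetochore and centromere genes of the list lay mostly above the GFP library. With SMC1, with CAPH2 and with SMC2, 5 of 6 were above 0, with medians of 0.11, 0.18 and 0.18. Cenpe (NM_173762), a kinetochore motor, was at 10.4 with GFP, 12.7 with SMC1, 12.5 and 12.6 with CAPH2, and 12.8 and 12.5 with SMC2, so the knockdown libraries were nearly equal and all above GFP. Cenpa (NM_007681, chromosome 5 from 30969274 to 30977199, plus strand, mm9), the histone H3 variant that marks the centromere, was the exception. Its RPKM was 192.7 with GFP, 135.1 with SMC1, 152.8 and 157.5 with CAPH2, and 160.4 and 151.9 with SMC2. GFP was highest and SMC1 lowest, at 70.1% of GFP (67.2 to 73.1). Nuf2, Ndc80 and Spc25, subunits of the complex that binds microtubules, had log2 changes from 0.00 (Ndc80 with SMC1) to 0.29 (Ndc80 with CAPH2). With SMC1 the counting intervals of Ndc80 (90.3 to 111.4% of GFP) and Spc25 (95.7 to 111.2%) included the GFP level. Of 29 other inner and outer kinetochore genes, 10, 17 and 13 were above 0 with SMC1, CAPH2 and SMC2, at medians of -0.07, 0.04 and -0.01. Most of that wider list was thus below GFP with SMC1. Of the 9307 rows at 10 RPKM or more, 3816, 4195 and 3969 were above 0.

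Spindle motors and microtubule factors had a median of -0.03 with SMC1, 0.15 with CAPH2 and 0.04 with SMC2. Kif11 (the motor Eg5, which separates the spindle poles) was at 40.9 with GFP, 46.5 with SMC1, 49.8 and 47.6 with CAPH2, and 48.3 and 47.4 with SMC2. Kif2c (NM_134471, the microtubule depolymerase MCAK) lay the other way, at 61.1 with GFP, 43.0 with SMC1, 51.4 and 55.0 with CAPH2, and 54.5 and 55.5 with SMC2. Ckap2, a spindle-associated protein, varied most between hairpins of 1 target, at 42.2 with GFP, 50.8 with SMC1, 63.7 and 49.6 with CAPH2, and 54.0 and 45.5 with SMC2. Its log2 change of 0.42 with CAPH2 was the highest of the 43 genes, but the hairpins differed from each other (0.59 and 0.23). Only CAPH2 #1 passed a fold of 1.5 for this gene.

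Among midzone and cytokinesis genes, Ect2 (NM_007900), the exchange factor that activates RHOA at the cleavage furrow, was at 47.2 with GFP, 63.0 with SMC1, 61.2 and 60.0 with CAPH2, and 64.0 and 62.0 with SMC2. All 5 knockdown libraries were above GFP by a similar amount, with log2 changes of 0.42, 0.36 and 0.42 for SMC1, CAPH2 and SMC2. Prc1, which bundles midzone microtubules, was nearly level at 61.8 with GFP, 57.4 with SMC1, 59.9 and 60.7 with CAPH2, and 59.7 and 59.8 with SMC2. Kif23 and Anln had log2 changes of -0.13 and -0.05 with SMC1.

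The genes of chromosome structure were 3 of 3 above GFP with SMC1, at a median of 0.38. Top2b (NM_009409, chromosome 14 from 17197719 to 17263301, plus strand, mm9), the topoisomerase II isoform that is also made in cells that do not divide, was at 12.5 with GFP, 27.1 with SMC1, 16.9 and 15.9 with CAPH2, and 15.0 and 15.1 with SMC2. The SMC1 level was 216.4% of GFP (203.4 to 230.4), and the condensin libraries lay between GFP and SMC1. Top2a (NM_011623, chromosome 11 from 98854260 to 98885503, minus strand, mm9), the isoform of dividing cells that decatenates sister chromatids, was at 133.7 with GFP, 170.7 with SMC1, 169.9 and 171.2 with CAPH2, and 163.5 and 158.0 with SMC2. Its 5 knockdown libraries were thus all higher than GFP and close to each other. Mki67 (NM_001081117), which encodes the proliferation antigen Ki-67 that coats mitotic chromosomes, was at 24.7 with GFP, 32.2 with SMC1, 23.2 and 24.8 with CAPH2, and 26.7 and 27.9 with SMC2, so the SMC1 library was the highest and the CAPH2 hairpins were at the GFP level.

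**Figure D2:**
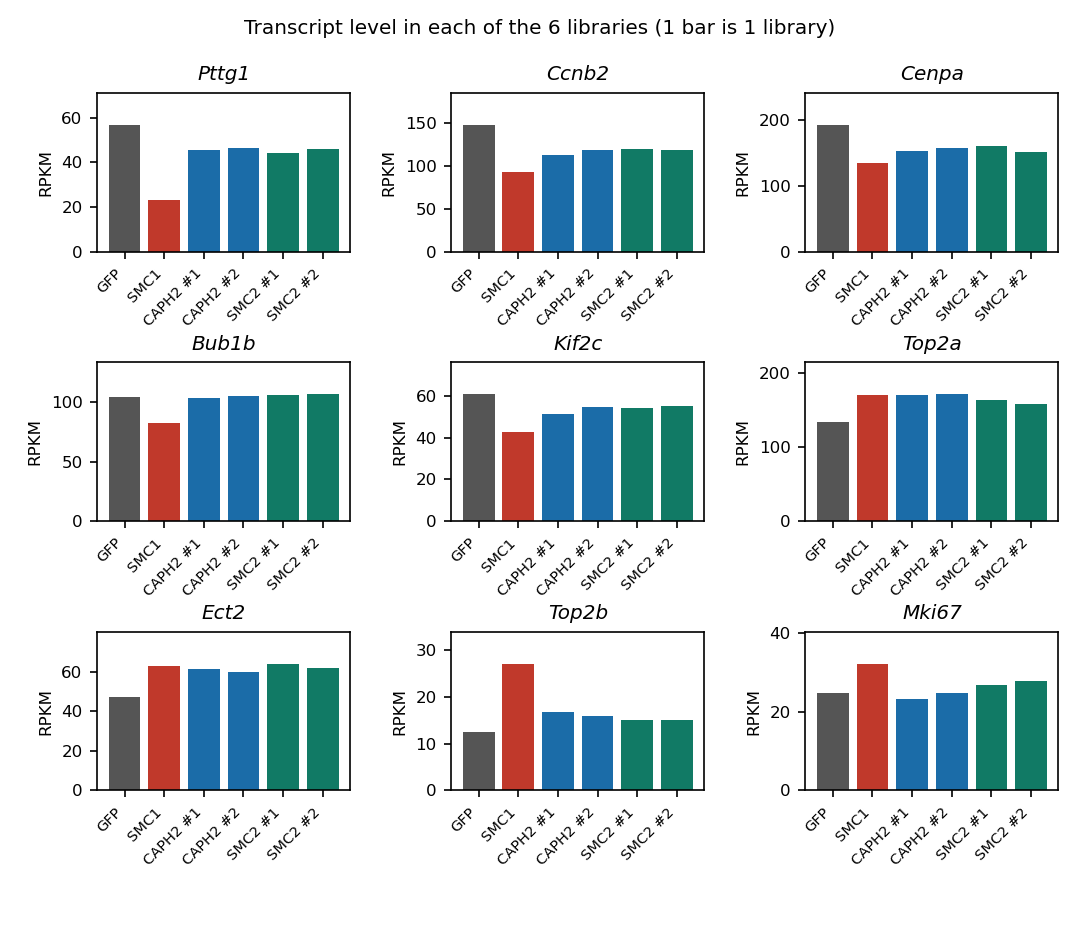
RPKM of 9 of the genes in each of the 6 libraries, 1 bar per library, on linear axes that start at 0 and differ between panels. Pttg1, Ccnb2, Cenpa, Bub1b and Kif2c are lowest in the SMC1 library, Top2a and Ect2 are lowest in the GFP library, and Top2b and Mki67 are highest in the SMC1 library. With the ERCC scaling all of them but Pttg1 lie above GFP in the SMC1 library.

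Scaled to the reads of each library, the hairpins of a target gave similar values for these genes. With the ERCC scaling the CAPH2 hairpins did not, at medians of 0.64 for #1 and -0.01 for #2. With the scaling to reads, the SD of the log2 change between the hairpins had a median of 0.05 for CAPH2 and 0.04 for SMC2 (n = 2 hairpins each). In that scaling 32 of the 43 genes for CAPH2 and 31 for SMC2 differed by under 0.1 between hairpins. The RPKM of the GFP library lay outside the range of the 4 condensin libraries for 70.4% of expressed rows (37.9% above, 32.4% below) and for 31 of the 43 genes (72.1%), above it for 14 and below it for 17. Within the kinases and chromosomal passenger genes it was above for 4 of 5 and below for 0, and within the kinetochore and centromere genes it was below for 5 of 6 and above for Cenpa. With 1 GFP library, a difference of that library from all others cannot be told apart from an effect common to the knockdowns.

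The CAPH2 and SMC2 libraries were compared with each other with edgeR, in the only comparison with 2 libraries on each side. Of 18245 rows tested, 1 (0.00548%) had an adjusted p-value under 0.05, and it was the knockdown target Smc2. Ncaph2, the other target, did not pass, at a log2 difference of -1.54 ± 0.18 (SE) and an adjusted edgeR p-value of 0.0511. Of the 43 genes 0 passed. Mki67 was the gene nearest to the threshold, at 24.0 ± 1.16 (SD, n = 2) with CAPH2 and 27.3 ± 0.85 (SD, n = 2) with SMC2, a log2 difference of -0.20 ± 0.07 (SE) with an unadjusted edgeR p-value of 0.0140 and an adjusted one of 1.00. It was the only one of the 43 with an unadjusted p-value under 0.05, in edgeR and in DESeq2. The log2 differences of the 43 genes ran from -0.20 to 0.18, with standard errors from 0.06 to 0.12, so differences of that size could not be told from the spread between hairpins.

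The SMC1 library was then compared with the 4 condensin libraries, leaving the GFP library out. In this edgeR test the spread came from the CAPH2 and SMC2 pairs, and the lone SMC1 library was assumed to vary like them. The common coefficient of variation estimated from those pairs was 0.067 with TMM factors and 0.249 with library sizes from the ERCC counts. With the larger spread a difference of a given size is harder to call, so a gene that does not pass there is not shown to be unchanged. Of 18398 rows, 44.5% had an adjusted p-value under 0.05 (23.2% higher and 21.3% lower with SMC1), and of the 43 genes 15 (34.9%), of which 13 were lower and 2 higher with SMC1. The median log2 difference of the 43 genes was -0.09, and of all rows -0.01. With library sizes taken from the ERCC counts, 0 of the 43 genes passed in edgeR, with 1 at an unadjusted p-value under 0.05, and 9.30% of all rows passed. DESeq2 gave 12 genes, beside 32.0% of all rows.

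Pttg1 was 2.02-fold lower with SMC1 than with the condensin hairpins, a log2 difference of -1.02 ± 0.09 (SE) with an adjusted edgeR p-value of 3.2e-05. Its SMC1 level (22.9) lay under the lowest of the 4 condensin libraries (44.2). Top2b was 1.70-fold higher with SMC1, at 0.76 ± 0.07 and an adjusted edgeR p-value of 5.1e-05, with 27.1 against a highest condensin value of 16.9. These were the largest differences in each direction among the 43 genes. Sgol2 was lower by 0.46 on the log2 scale (-0.46 ± 0.09, adjusted edgeR p-value 0.00232), and its SMC1 value of 18.1 lay under the lowest condensin value of 22.7. For Bub1b the difference was -0.37 ± 0.07 (adjusted edgeR p-value 0.00198), for Ccnb2 -0.37 ± 0.08 (0.00376), for Kif2c -0.36 ± 0.08 (0.00545) and for Sgol1 -0.36 ± 0.08 (0.00653). Mki67 was higher by 0.31 ± 0.07 (0.00709), above a highest condensin value of 27.9. The other genes that were lower were Birc5, Espl1, Nusap1, Hmmr, Cenpa, Cdc25c and Anln, with log2 differences from -0.20 to -0.33. Of the 13 lower genes, 11 lay above 0 with the ERCC library sizes, at values from 0.05 to 0.22, and only Pttg1 (-0.59) and Sgol2 (-0.04) stayed below.

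By role, and beside 44.5% of all rows (21.3% lower), 4 of the 6 anaphase and shugoshin genes passed the edgeR test, and all 4 (Pttg1, Sgol2, Sgol1 and Espl1) were lower with SMC1. With the ERCC library sizes none of these passed, and Espl1 and Sgol1 were above 0 at 0.14 and 0.06. Of the 6 cyclin and CDK1 control genes 2 were lower, of the 7 spindle genes 3 were lower, and in each of the kinase, checkpoint, kinetochore and midzone groups 1 was lower. Cdk1, Ccna2, Ccnb1 and Plk1 did not pass, with log2 differences of -0.16 ± 0.08, -0.15 ± 0.07, -0.10 ± 0.10 and -0.02 ± 0.08. Top2a, at 0.02 ± 0.06, and Ect2, at 0.00 ± 0.07, which stood above GFP in all 5 knockdown libraries, did not pass either. In RPKM, the SMC1 library lay outside the range of the condensin libraries for 78.7% of expressed rows (37.5% above, 41.2% below) and for 27 of the 43 genes (62.8%), below it for 23 and above it for 4.

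**Figure D3:**
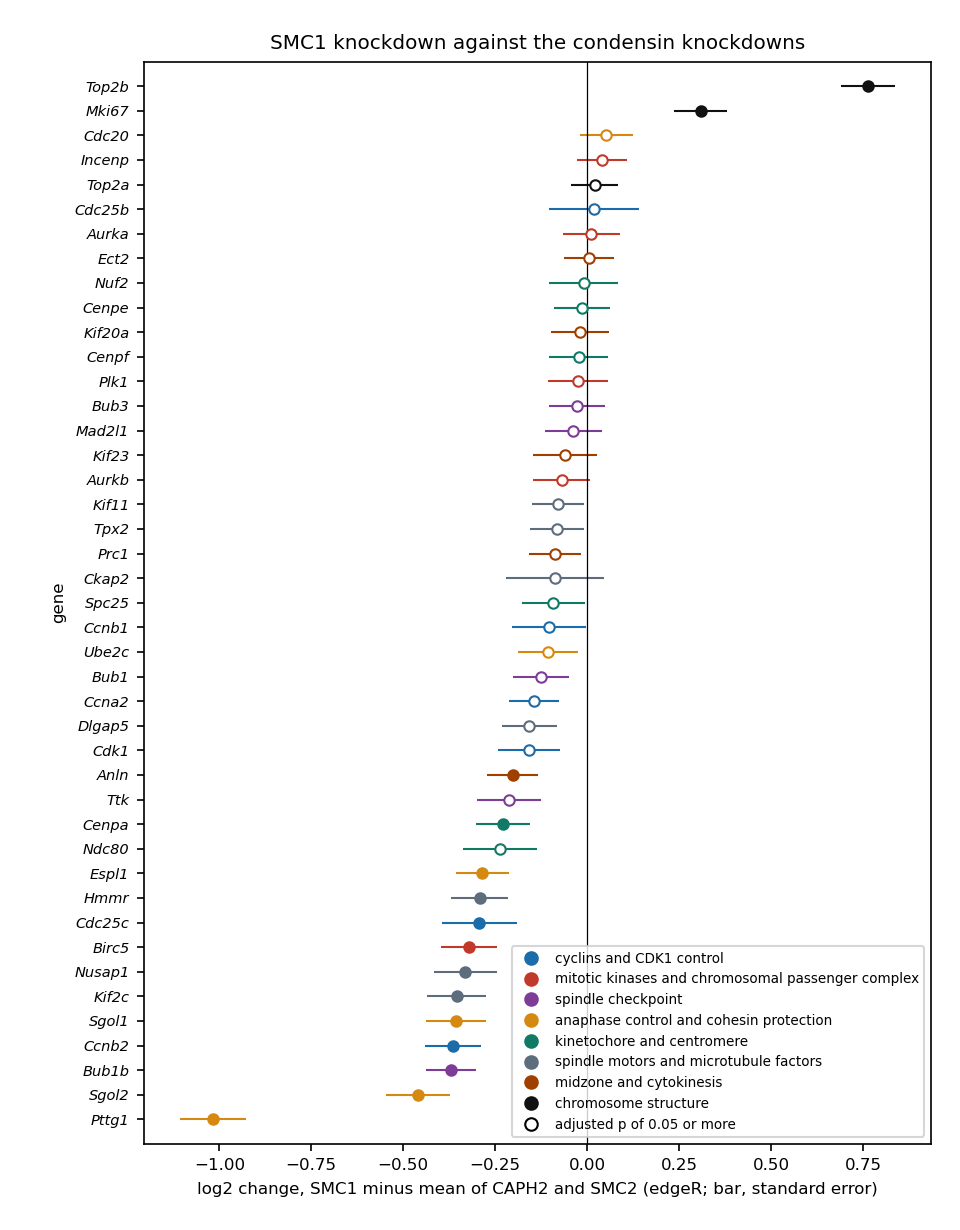
Log2 difference between the SMC1 library and the mean of the CAPH2 and SMC2 libraries for each of the 43 genes, from edgeR on counts with TMM scaling, with bars for the standard error, colours for the role and filled points for an adjusted p-value under 0.05. Pttg1 (-1.02) and Top2b (0.76) stand apart from the rest, and 13 of the 15 filled points are to the left of 0, of which 11 lie above 0 with the ERCC library sizes.

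A wider list of 107 other mitotic genes was measured beside these 43, and 105 were found. Their median log2 change was -0.07 with SMC1, 0.04 with CAPH2 and -0.01 with SMC2. A fold of 1.5 was reached by 14 of them with SMC1 (5 higher and 9 lower), against 32.8% of expressed rows, and by 0 with CAPH2 and 0 with SMC2, against 3.6% for each. Mybl2, which encodes the B-Myb factor that activates mitotic promoters together with the MuvB complex, had the largest fall. Its RPKM was 212.7 with GFP, 57.3 with SMC1, 152.3 and 168.4 with CAPH2, and 162.6 and 172.2 with SMC2, so SMC1 was far below the other 5 libraries. The next largest falls with SMC1 were in Cenpm (56.6 with GFP to 27.3) and Spc24 (107.6 to 57.6), which encode kinetochore proteins. The largest rises were in Cenpj (3.34 to 5.84), a centriole protein, Cdc27 (17.3 to 27.2), a subunit of the anaphase-promoting complex, and Aspm (7.63 to 11.7), a spindle pole protein. Against the condensin hairpins, 37 of the 105 passed the edgeR test, 32 lower and 5 higher with SMC1 (35.2%, against 44.5% of all rows).

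**Figure D4:**
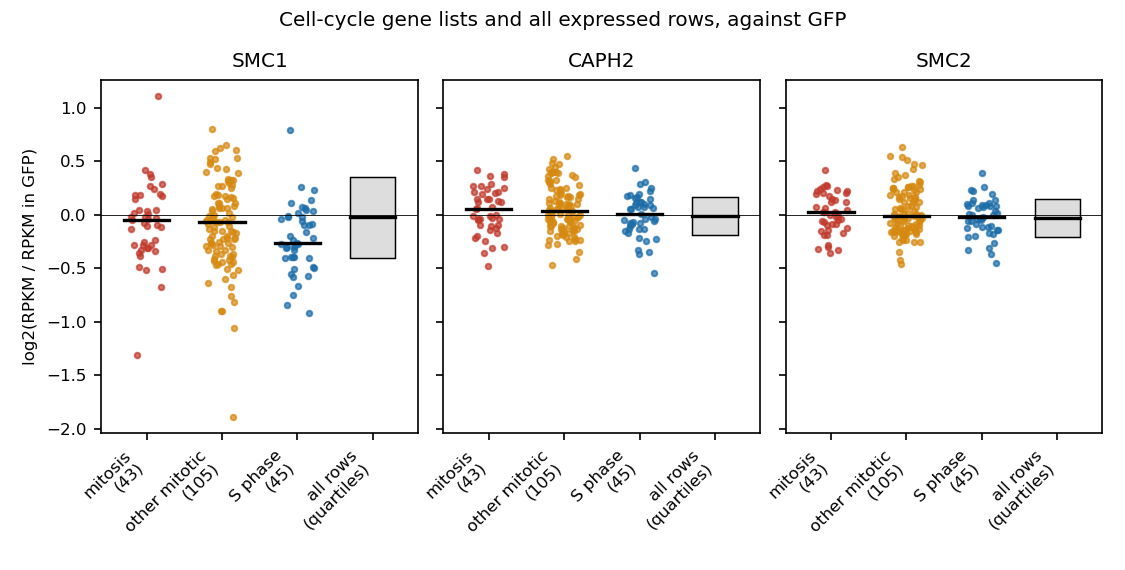
Log2 change against the GFP library for the 43 mitotic genes, 105 other mitotic genes and 45 S-phase genes, 1 point per gene with the median as a line, and for all expressed RefSeq rows as a box from the lower to the upper quartile. With CAPH2 and SMC2 the 3 lists and the rows are centred near 0, and with SMC1 the mitotic median is -0.05 and the S-phase median -0.26. With the ERCC scaling the mitotic median with SMC1 is 0.82.

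Longer mitotic transcripts had higher log2 changes than shorter ones. The Spearman correlation of the log2 change with exonic length over the 43 genes was 0.318 for SMC1, 0.371 for CAPH2 and 0.478 for SMC2 (0.230, 0.302 and 0.417 without Pttg1 and Top2b), and over all expressed genes it was 0.333, 0.263 and 0.338. With the genomic span of the gene it was 0.369, 0.523 and 0.544 over the 43 genes and 0.262, 0.245 and 0.284 over all expressed genes. With the RPKM in the GFP library, which also enters the change itself, it was -0.308, -0.463 and -0.477 over the 43 genes and -0.224, -0.087 and -0.098 over all expressed genes. All of these use the same GFP library and are given as a description, and the parts of length, span and level were not separated. The 10 genes with under 2000 exonic bases, among them Ube2c, Cenpa, Ccnb2, Pttg1 and Aurkb, had medians of -0.27, -0.16 and -0.15 with SMC1, CAPH2 and SMC2. The 11 genes with 4000 or more, among them Cenpe, Cenpf, Top2a, Top2b and Mki67, had medians of 0.18, 0.15 and 0.15. Over all expressed genes the corresponding medians were -0.25, -0.09 and -0.12 for the short and 0.24, 0.09 and 0.10 for the long transcripts. The part of transcript length in the directions by role given above was not tested.

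**Figure D5:**
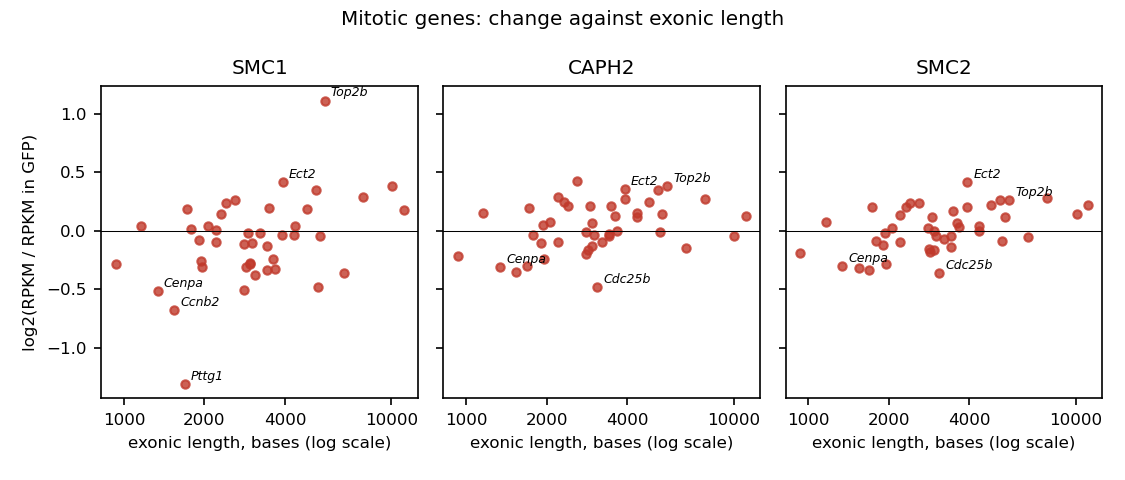
Log2 change of the RPKM against the GFP library for the 43 genes by exonic length in bases on a log axis, 1 panel per target and 1 point per gene. Cenpa, a short transcript, lies below 0 and Top2b, a long one, above 0 in all 3 panels, while of the 10 transcripts under 2000 bases 3, 3 and 2 lie above 0 with SMC1, CAPH2 and SMC2, and with the ERCC scaling all genes but Pttg1 lie above GFP with SMC1.

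Genes with and without the core in their promoters were among those that differed between SMC1 and the condensin hairpins. Of the 27 genes with a core in the promoter, 9 passed the edgeR test of SMC1 against the condensin hairpins (8 lower, 1 higher), and of the 9 without it 5 did (4 lower, 1 higher), beside 44.5% of all rows. The median log2 change with SMC1 against GFP was -0.05 in the former and 0.15 in the latter. Pttg1 and Top2b, with the largest change in each direction, both lacked the core.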

How the data were processed

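RNA-seq libraries of V6.5 ESCs were made from RNA of 652000 cells each with 1.42 µl of diluted ERCC RNAs. The authors aligned reads with Bowtie (-e 70 -k 1 -m 2 -n 2) to mm9 and deposited, for each RefSeq transcript, the exonic read count and the RPKM from RPKM_count 2.3.5, normalised for exon length and library reads. A read in a shared exon counts for every isoform, and reads matching more than 2 places were discarded. The deposited counts total 25467427 to 31337313 per library, and the deposited RPKM values rest on 18823247 to 23324537 reads.

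Gene symbols came from RefSeq accessions (25353 of 26073 rows). The log2 ratio of deposited RPKM values to GFP was taken without a pseudocount, after averaging both hairpins of a target, and rows below 1 RPKM with GFP were left out. Deposited counts with at least 10 in at least 2 libraries were tested by the quasi-likelihood method of edgeR 4.0.16 with TMM factors, and p-values were adjusted over all rows (Benjamini-Hochberg), after a check on simulated counts. DESeq2 1.42.0, other scalings, filters, a pseudocount of 1, a fold of 2, a replicate block and leaving out each hairpin were alternatives. Intervals are 95% exact binomial and cover counting error only. The 43 genes and the gene lists were chosen with earlier results of these data known. Genes given in full were the leading gene of each role, the largest changes per target and the genes passing an edgeR test with the smallest p-values. Promoters are from RefSeq, GRCm38.p6, and all other coordinates are mm9. Python 3.11.15 and scipy 1.17.1 were used.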

Additional observations from a re-analysis of the deposited data

How the results depend on the processing

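The median log2 change of the 43 genes against GFP was -0.05 with SMC1, and it became -0.087 with TMM factors, -0.079 with DESeq2 size factors and 0.82 with the ERCC counts, where 30 genes and 72.6% of expressed rows passed a fold of 1.5. With CAPH2 it became 0.38 with the ERCC counts, an average over 0.64 for CAPH2 #1 and -0.01 for CAPH2 #2, and leaving out either hairpin gave 0.0075 to 0.039 and 0 to 2 genes past that fold (Cdc25b and Ckap2 without CAPH2 #2). With SMC2 it became 0.63 with the ERCC counts, where 20 genes and 39.0% of expressed rows passed, and leaving out either hairpin gave -0.0080 to 0.024. A pseudocount of 1, an RPKM minimum of 5, no minimum and a mean over isoform rows changed no count of genes past the fold, and with a fold of 2 Ccnb2 no longer passed.

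In CAPH2 against SMC2, 0 to 1 genes passed when a hairpin was left out, the 1 being Ckap2 without CAPH2 #2, and 0 passed in every other setting. In SMC1 against the condensin hairpins, 14 genes passed with DESeq2 size factors, beside 44.1% of all rows. With the ERCC library sizes 0 passed, beside 9.30% of all rows. The ERCC scaling turned Ccnb2 against GFP to 0.19, and in SMC1 against the condensin hairpins it turned Bub1b to 0.052, Kif2c to 0.072, Cenpa to 0.19, Ccnb2 to 0.060, Birc5 to 0.095, Espl1 to 0.14, Sgol1 to 0.061, Nusap1 to 0.099, Hmmr to 0.12, Cdc25c to 0.13 and Anln to 0.22. The ERCC library sizes moved the genes upward by similar amounts, among them Cdk1 from -0.16 to 0.27, Pttg1 from -1.02 to -0.59 and Top2b from 0.76 to 1.18. Genes slightly below 0 therefore changed sign through a shift that the genes shared. Why the ERCC share of the counts differed between libraries was not tested. The promoter core was found in 12 of 36 promoters in the shorter window.

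Same-numbered CAPH2 and SMC2 libraries share only a number (correlation of their deviations 0.0490). With the number as a replicate block, 0 of the 43 genes passed (2 at an unadjusted p-value under 0.05) and 15 of 18245 rows. The genes had 588 or more counts in each library, and GFP and SMC1 had 1 library each. The comparison rows with an RPKM of at least 10 and the promoters of expressed genes were chosen after seeing the data.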

Other observations

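Genes of S phase, which precede mitosis in the cycle, had a median log2 change of -0.26 with SMC1, and 35 of 45 were below 0. With CAPH2 and SMC2 the medians were 0.01 and -0.02. A fold of 1.5 was passed by 5 of the 45 with SMC1 (11.1%, against 32.8% of expressed rows) and by 0 with either condensin target. E2f1, a transcription factor of the G1-S transition, was at an RPKM of 47.4 with GFP, 25.2 with SMC1, 31.5 and 33.8 with CAPH2, and 34.6 and 35.0 with SMC2. Cdt1, which licenses replication origins, was at 144.4 with GFP, 80.8 with SMC1, 110.1 and 117.1 with CAPH2, and 120.1 and 113.7 with SMC2. For both genes GFP was the highest and SMC1 the lowest library. Ccne2 (cyclin E2) was the only one of the list to pass a fold of 1.5 upward with SMC1, from 8.82 with GFP to 15.3. Against the condensin hairpins, 28 of the 45 passed the edgeR test (62.2%, against 44.5% of all rows), 27 lower and 1 higher with SMC1.

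Of 10 cell-cycle inhibitor genes, 9 were expressed at 1 RPKM or more with GFP, and with SMC1 3 were at least 1.5-fold higher and 1 at least 1.5-fold lower, against 15.5% and 17.3% of expressed rows. Cdkn1c (p57) was at 26.0 with GFP, 87.8 with SMC1, 26.7 and 27.0 with CAPH2, and 27.2 and 31.1 with SMC2, so the SMC1 library alone was high. Cdkn1a (p21) was at 49.1 with GFP, 111.3 with SMC1, 82.2 and 51.3 with CAPH2, and 51.6 and 50.8 with SMC2, so CAPH2 #1 was also above the rest. Cdkn2b was at 6.27 with GFP, 14.0 with SMC1, 11.8 with CAPH2 #1 and 7.40 with CAPH2 #2, and was near the latter value with SMC2, so SMC1 and CAPH2 #1 were again the high libraries. Cdkn2d was lower, at 12.4 with GFP and 6.47 with SMC1.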
